A study of Mus musculus with 6 samples.

Results

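The interferon stimulated genes are the genes that cells switch on when an interferon reaches its receptor, and 47 of them, listed by function with Rsad2 at their head, were examined in fetal liver (FL) that lacked Pogz. Of the 47, 44 were measured, out of 18193 genes in all. Isg15, Oas1g and Ifi44 had no probe set that names them alone and are without a value. Each measured gene was represented by the probe set, a group of short probes against 1 transcript, with the highest mean signal, and all 77 probe sets of the 44 genes were read as checks (24 genes had 1, and 20 had several). The question was whether Rsad2 moved by itself or with the rest of the class.

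Affymetrix Mouse Genome arrays, 1 per embryo, measured FL RNA of 3 Pogz-/- and 3 Pogz+/+ embryos at E14.5 (E, embryonic day), and both genotypes were congenic on C57BL/6 after more than 10 generations of backcrossing. The Pogz-/- embryos carried a germline deletion of the exons that encode the CENPB and DDE domains and part of the zinc fingers, made with a Cre transgene under the β-actin promoter, and Pogz+/+ embryos carried the intact gene. Whole livers were minced and strained with no sorting of cell types, so fewer cells of a type and less RNA per cell cannot be told apart. Values are log2 of the deposited intensity, differences are Pogz-/- minus Pogz+/+ and carry the standard error (SE) of the fit, and "rose" or "fell" is written of genes that pass an adjusted p of 0.05 (limma, Benjamini-Hochberg over 18193 genes).

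Interferons act through paired receptors and the kinases JAK1, JAK2 and TYK2. Type I interferon leads to a complex that holds STAT2 and IRF9 and binds an element built on GAAA repeats in promoters, while interferon gamma reaches many of the same genes through IRF1. The products block viruses at entry, RNA translation, nucleotide supply and budding, and others process peptides for display to T cells. E14.5 FL is a blood-forming organ in which erythroid precursors lie around macrophages among hepatoblasts.

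Markers of the labelled tissue were bright on every array, and 1 array stood apart. Afp, made by hepatoblasts, had 13.60, 13.92 and 14.02 in Pogz-/- FL and 15.40, 14.63 and 14.37 in Pogz+/+ FL, and the adult globin gene Hbb-b2 lay between 12.01 and 12.59 in Pogz-/- and between 12.85 and 13.85 in Pogz+/+. The brightest of 4 Pogz probe sets had a difference of 0.18 (SE 0.16, adjusted p = 0.547), and the others had 2.17 and 1.47, with every Pogz-/- array above every Pogz+/+ array, and −0.59 (adjusted p = 0.187, 0.334 and 0.436 over probe sets). Since they could not be placed against the deletion, they do not check the genotype. The ratio of 3′ to 5′ signal of the β-actin control, which is higher where RNA or target is shorter, was 3.72 to 4.09 in the Pogz-/- arrays, against 52.3 in Pogz+/+ replicate 1 and 5.50 and 6.63 in its group otherwise. The correlation of replicate 1 with the other arrays was 0.794 to 0.810 across probe sets, against 0.884 to 0.906 for the other pairs. Results are therefore given with and without replicate 1, and because the ratio was higher in each Pogz+/+ array than in each Pogz-/- array, it moved with genotype in either case. Its part in the results was not tested. Over 6 arrays 18 genes rose and 4 fell; without replicate 1, 439 rose and 376 fell.

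Rsad2 rose in Pogz-/- FL on 2 of its 3 probe sets. The gene encodes viperin, a radical SAM enzyme that turns CTP into a chain-terminating analogue and thereby stops viral RNA synthesis. On the brightest probe set, 1436058_at, its signal was 10.62, 11.10 and 10.81 in the Pogz-/- arrays, against 9.23, 7.76 and 8.09 in the Pogz+/+ arrays. The genotypes did not overlap, and Pogz+/+ replicate 1 was the highest of its group. The mean of Rsad2 was 10.84 ± 0.24 for Pogz-/- against 8.36 ± 0.77 for Pogz+/+ (SD of 3 arrays each), a difference of 2.48, or 5.59-fold (SE 0.32, 95% interval 1.77 to 3.19, adjusted p = 0.0212), which was larger than the spread within either genotype. Without replicate 1 it was 2.92 (SE 0.15, adjusted p = 9.35e-06). The call rests on limma's trend and robust settings and on the number of arrays: the plain fit called 0 genes, with replicate 1 or without it, and gave Rsad2 an adjusted p of 0.291. With trend and robust it was also lost without Pogz-/- replicate 1, 2 or 3 or Pogz+/+ replicate 3 (adjusted p = 0.126 to 0.253, differences of 2.35 to 2.59).

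The other probe sets of Rsad2 had differences of the same sign. On 1421009_at the signal was 9.14, 9.53 and 9.12 in Pogz-/- FL and 6.54, 6.24 and 6.17 in Pogz+/+ FL, and the difference was 2.95 (SE 0.21, adjusted p = 0.00125 over 45037 probe sets). Here replicate 1 lay close to the other Pogz+/+ arrays. On the dimmest, 1421008_at, the arrays read 6.40, 7.05 and 6.65 in Pogz-/- and 6.64, 4.70 and 4.98 in Pogz+/+. Replicate 1 lay among the Pogz-/- arrays there, and the difference of 1.26 did not pass the test (SE 0.48, adjusted p = 0.262), while without replicate 1 it was 1.86 (SE 0.30, adjusted p = 0.00979).

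Cmpk2, the neighbour of Rsad2, overlapped between the genotypes. It encodes a mitochondrial nucleotide kinase, stands next to Rsad2 on chromosome 12 on the opposite strand, and is commonly induced by interferon with it. Its signal was 7.84, 8.52 and 8.24 in Pogz-/- FL and 8.05, 8.24 and 8.09 in Pogz+/+ FL. The Pogz+/+ values lay within the range of the Pogz-/- ones, and the difference was 0.07 (SE 0.21, 95% interval −0.38 to 0.53, adjusted p = 0.88). A 2-fold rise, which is 1 on the log2 scale, lies outside that interval, while with each array centred on its median the difference was 0.53 and the interval, −0.11 to 1.18, reached past it. On its other probe set the difference was −0.31 (SE 0.43, adjusted p = 0.747 over probe sets).

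The distance between both genes within an array does not depend on a single factor that scales the whole array, though quantile normalization can change it. Rsad2 minus Cmpk2 was 2.78, 2.58 and 2.57 in the Pogz-/- arrays and 1.18, −0.48 and 0.00 in the Pogz+/+ arrays. All Pogz-/- values were above all Pogz+/+ values, and the mean distances differed by 2.41 (exact permutation test, two-sided p = 0.1, the smallest that 3 arrays against 3 can give). The arrays of Rsad2 alone already did not overlap, and the gene was chosen with earlier results known. The p therefore adds no support of its own. Among the protein-coding genes on either side, none of the 4 nearest measured here on the side of Rnf144a or the 3 beyond Cmpk2 was called. The nearest, Rnf144a, had a difference of −0.13, Id2 had −0.07, Kidins220 had 0.62 (SE 0.16, adjusted p = 0.13) and Sox11 had −1.20 (SE 0.57, adjusted p = 0.297). In every Pogz-/- array Kidins220 lay above all Pogz+/+ arrays, while Sox11 and Allc lay below. Over all genes, 10.8% lay above and 16.3% below.

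**Figure D1:**
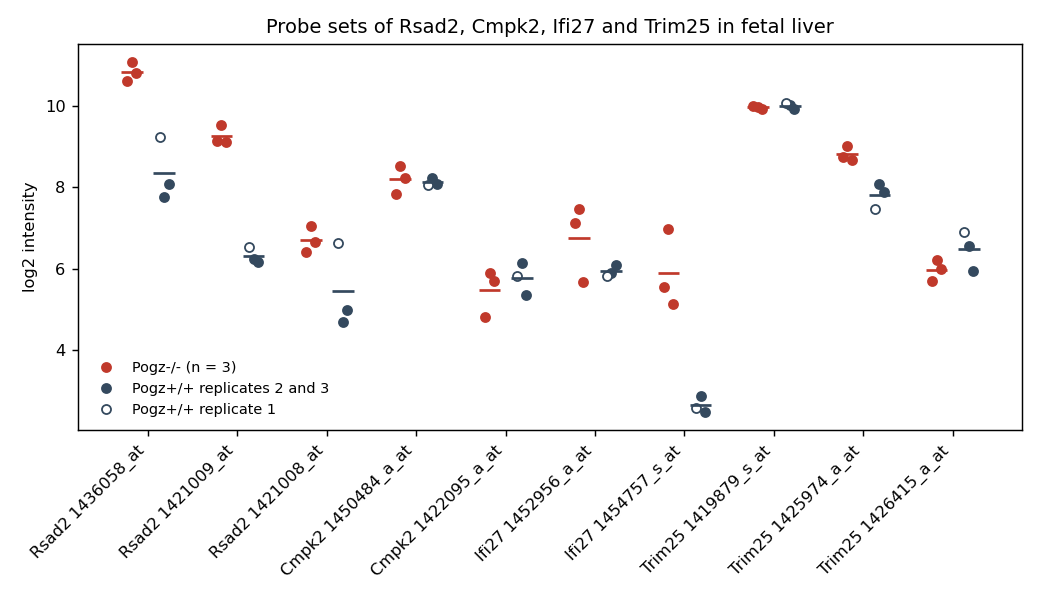
Log2 intensity of each probe set of Rsad2, Cmpk2, Ifi27 and Trim25, with Pogz-/- arrays (red) left of Pogz+/+ arrays (dark, replicate 1 open) and bars at the mean of 3. On Rsad2 1421009_at the Pogz-/- arrays lie at 9.12 to 9.53 and the Pogz+/+ arrays at 6.17 to 6.54, while the genotypes overlap on both Cmpk2 probe sets; heights of different probe sets are not comparable.

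The promoters of this pair and of 2 further members are shown because the interferon element sets apart many genes of the class. The search was for GAAA, any 2 bases and GAAA again on either strand, which is the core of the interferon stimulated response element, in RefSeq windows of the GRCm38.p6 assembly that reach from 250 bases before to 50 bases after each start. Of 32851 windows, 3.44% held it, and of 27025 genes, 3.99% did. Among members it was found in 16 of the 37 with a window (43.2%). The lines give the 150 bases before the start, 5′ to 3′ on the strand of the gene, with the element in capitals (it reads as TTTC, any 2 bases and TTTC when it lies on the other strand).
Rsad2: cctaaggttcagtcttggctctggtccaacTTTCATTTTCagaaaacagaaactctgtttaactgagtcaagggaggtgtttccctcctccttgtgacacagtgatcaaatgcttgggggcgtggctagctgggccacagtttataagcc
Cmpk2: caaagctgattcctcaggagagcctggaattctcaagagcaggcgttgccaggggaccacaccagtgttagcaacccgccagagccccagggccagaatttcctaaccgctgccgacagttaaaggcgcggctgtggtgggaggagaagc
Ifit1: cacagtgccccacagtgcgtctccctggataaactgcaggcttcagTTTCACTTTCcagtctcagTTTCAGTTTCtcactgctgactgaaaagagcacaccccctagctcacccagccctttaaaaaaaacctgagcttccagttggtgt
Bst2: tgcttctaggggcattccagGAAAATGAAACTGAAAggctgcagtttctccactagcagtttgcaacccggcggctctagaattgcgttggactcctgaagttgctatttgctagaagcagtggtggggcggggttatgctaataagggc

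These stretches are chr12:26456453-26456602 (minus strand), chr12:26469065-26469214 (plus strand), chr19:34640739-34640888 (plus strand) and chr8:71537473-71537622 (minus strand). In Rsad2 the element begins 120 bases before the start. Ifit1 has it at 104 and 85 bases, Bst2 has overlapping copies at 130 and 124 bases, and these letters are not in the Cmpk2 window. The 13 other measured members with it had differences between −1.34 and 0.93 with a median of −0.12, and the 20 without it had −2.03 to 0.54 with a median of −0.16. None of them was called. A match of letters is a description and not a binding site.

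Of the 44 measured members, Rsad2 was the only one that rose and 0 fell, with 6 arrays and also without replicate 1. Over all genes, 0.0989% rose and 0.022% fell with 6 arrays, and 2.41% rose and 2.07% fell without replicate 1. The other 43 members had differences from −2.03 to 0.93, with adjusted p from 0.211 to 0.966, and the lowest adjusted p without replicate 1 was 0.158. In sign, 15 members were positive and 29 negative, and the median was −0.16, beside a median of −0.17 over all genes. Without replicate 1 these medians were −0.14 and −0.10. The signs depend on scaling: with each array centred on its median, 35 members were positive and 9 negative, and the medians were 0.30 over members and 0.29 over all genes. At an unadjusted p under 0.05, the members held 1 higher gene, Rsad2, and 3 lower genes, Trim30a, Irf7 and Stat2, where 7.15% of all genes were higher and 10.6% were lower.

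How far these data limit a rise of the others differed by gene. For 32 of the 43, the 95% interval ended below a 2-fold rise, and for 36 it ended below 1.77, the lower end of the interval of Rsad2. Without replicate 1 these counts were 35 and 41 (the lower end then being 2.59). With median centring they were 14 and 37, and with quantile normalization 24 and 33, so the count below 2-fold moves with the scaling. Among the 30 other members whose signal was at or above 5.67, the median over all genes, differences ran from −0.81 to 0.83 and 25 intervals ended below 2-fold. The other 13 were dimmer, with SEs of up to 1.09. The median signal of the other 43 was 6.43, 6.44 and 6.26 in Pogz-/- FL and 6.48, 6.53 and 6.51 in Pogz+/+ FL, so each Pogz-/- value was the lower, beside the median of −0.17 over all genes.

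**Figure D2:**
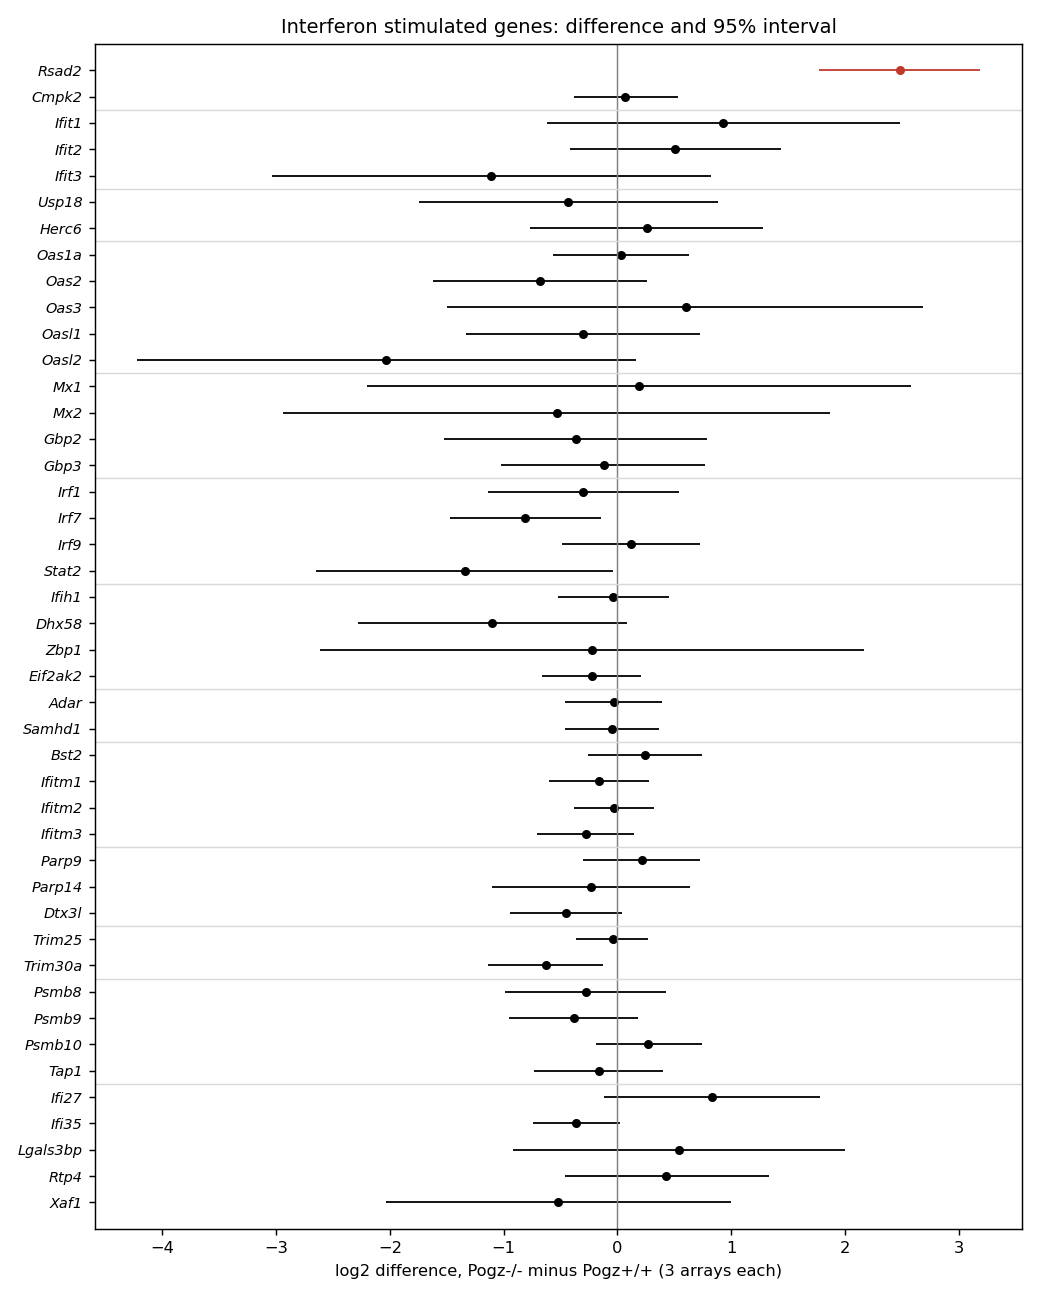
Log2 difference, Pogz-/- minus Pogz+/+, of the 44 measured members with its 95% interval from limma, in order of their roles and with gray lines between roles. Rsad2 (red) has an interval from 1.77 to 3.19, and the other members lie between −2.03 and 0.93.

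The IFIT proteins, several of which bind viral RNA, are among the first genes that interferon raises. Ifit1 read 4.51, 4.92 and 5.08 in Pogz-/- FL and 2.95, 3.92 and 4.85 in Pogz+/+ FL. The groups overlapped at Pogz+/+ replicate 3, and the difference of 0.93 (SE 0.70, adjusted p = 0.499) was 0.45 without replicate 1. Ifit2 read 6.36, 6.76 and 6.10 in Pogz-/- and 5.15, 6.78 and 5.78 in Pogz+/+, with a difference of 0.51 (SE 0.42, adjusted p = 0.542) that was 0.13 without replicate 1. Ifit3 had the opposite sign, −1.11 (SE 0.87), and Pogz-/- replicate 3 read 1.85 where its group otherwise read 4.94 and 4.36. Of the ISG15 pathway, Usp18, the protease that removes ISG15, had −0.43 (SE 0.59), and Herc6, the mouse ligase that attaches it, had 0.26 (SE 0.46), or −0.29 (SE 0.27) without replicate 1.

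The OAS proteins sense double-stranded RNA, and several of them make the messenger that turns on RNase L. None was called, and their signs were mixed. Oas1a read 6.27, 6.44 and 6.38 in Pogz-/- FL and 6.08, 6.41 and 6.51 in Pogz+/+ FL, which overlapped and gave a difference of 0.03 (SE 0.27). Oas2 had −0.68 (SE 0.42, adjusted p = 0.418), Oasl1 had −0.30 and the dim Oas3 had 0.60, or −0.01 without replicate 1. Oasl2 had the lowest difference of the class, −2.03 (SE 0.99, adjusted p = 0.308), and scattered widely, with 5.17, 2.86 and 1.30 in Pogz-/- and 5.80, 4.45 and 5.18 in Pogz+/+. Of the antiviral GTPases, Mx1, which is defective in C57BL/6 mice, and Mx2 were near the floor of the arrays, with differences of 0.19 and −0.53 and SEs of 1.08 and 1.09.

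None of the 4 transcription factors of the class was called. Irf7, the factor that amplifies type I interferon production and is itself induced, read 6.20, 5.78 and 5.76 in Pogz-/- FL and 6.93, 6.34 and 6.89 in Pogz+/+ FL. All Pogz-/- arrays were lower, yet the difference of −0.81 did not pass the test (SE 0.30, adjusted p = 0.217). Stat2 read 3.63, 4.19 and 4.22 in Pogz-/- and 6.08, 5.08 and 4.91 in Pogz+/+, a difference of −1.34 (SE 0.59, adjusted p = 0.272). It too was lower in each Pogz-/- array. Its other probe set gave 0.45 (SE 1.17) with Pogz+/+ replicate 1 at 1.16, and −1.0 (SE 0.65) without that array, beside −0.98 (SE 0.60) on the brighter one. Irf9, their DNA-binding partner, had 0.12 (SE 0.27), or −0.22 (SE 0.15) without replicate 1. Irf1 had −0.30 (SE 0.38), which without replicate 1 was −0.73 (SE 0.26, adjusted p = 0.158).

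The RNA and DNA sensors all had negative differences in the deposited scaling, and 0 of 4 passed; with median centring Ifih1, Eif2ak2 and Zbp1 turned positive (0.42, 0.24 and 0.24), and with quantile normalization Zbp1 did (0.30). Ifih1, which detects long double-stranded RNA and signals towards type I interferon, read 7.20, 7.18 and 6.87 in Pogz-/- FL and 7.12, 7.26 and 6.98 in Pogz+/+ FL, a difference of −0.04 (SE 0.22). Eif2ak2, the kinase PKR that halts translation, had −0.22 (SE 0.20). Dhx58, a regulator of the sensors, read 3.82, 4.83 and 4.81 in Pogz-/- and 5.97, 4.96 and 5.82 in Pogz+/+. Its groups did not overlap, and the difference of −1.10 (SE 0.53, adjusted p = 0.307) did not pass. They overlapped on its dimmer probe sets, with differences of −0.63 (SE 0.95) and 0.09 (SE 0.88), or −0.08 and 0.13 without replicate 1. The nucleic acid sensor Zbp1 was dim, with −0.22 (SE 1.08), or 0.18 without replicate 1. Adar, which edits double-stranded RNA, and Samhd1, which breaks down dNTPs, had −0.03 and −0.05 (SE 0.19 each).

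Some of the most tightly measured members were the restriction factors of the membrane. Ifitm1, which with its relatives hinders virus entry, read 9.84, 10.11 and 9.76 in Pogz-/- FL and 10.39, 10.11 and 9.69 in Pogz+/+ FL. The groups overlapped, and the difference was −0.16 (SE 0.20, adjusted p = 0.695). Ifitm2 had −0.03 (SE 0.16) and Ifitm3 had −0.28 (SE 0.19). Bst2, the tetherin that holds budding virus at the cell surface, read 6.99, 7.16 and 7.13 in Pogz-/- and 7.04, 6.60 and 6.93 in Pogz+/+, a difference of 0.24 (SE 0.23, adjusted p = 0.597). For all 4, a 2-fold rise lay outside the 95% interval in the deposited scaling.

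Trim30a, a mouse TRIM protein that restrains inflammatory signalling, had the smallest adjusted p of the class after Rsad2. It read 7.47, 7.49 and 7.0 in Pogz-/- FL and 8.29, 7.81 and 7.76 in Pogz+/+ FL. The groups did not overlap, and the difference was −0.63 (SE 0.23, adjusted p = 0.211). On its other probe set they overlapped, with a difference of −0.11 (SE 0.30), or 0.07 (SE 0.27) without replicate 1. Dtx3l, a ubiquitin ligase, read 6.94, 6.76 and 7.11 in Pogz-/- and 7.59, 7.16 and 7.41 in Pogz+/+. These did not overlap either, and the difference was −0.45 (SE 0.22, adjusted p = 0.314). The other probe set of Dtx3l overlapped, with −0.49 (SE 0.27). Parp9, the partner of Dtx3l, had 0.22 (SE 0.23, adjusted p = 0.647). In all, 2 members (4.55%) lay above in every Pogz-/- array, Rsad2 and Psmb10, and 5 (11.4%) lay below, beside 10.8% and 16.3% of all genes.

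None of the 4 members that process peptides for display was called. Psmb10, a catalytic subunit of the immunoproteasome, read 8.38, 8.33 and 8.30 in Pogz-/- FL and 7.63, 8.28 and 8.27 in Pogz+/+ FL. Replicate 1 alone stood off, and the difference of 0.27 (SE 0.21, adjusted p = 0.506) was 0.06 without it. Psmb8 and Psmb9, subunits of the same particle, had −0.28 and −0.38, and Tap1, of the peptide transporter, had −0.16 (SE 0.25). The members on chromosome 3, which also carries Pogz, were Adar, Gbp2 and Gbp3. The guanylate binding proteins Gbp2 and Gbp3 had −0.36 (SE 0.52) and −0.12 (SE 0.40).

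**Figure D3:**
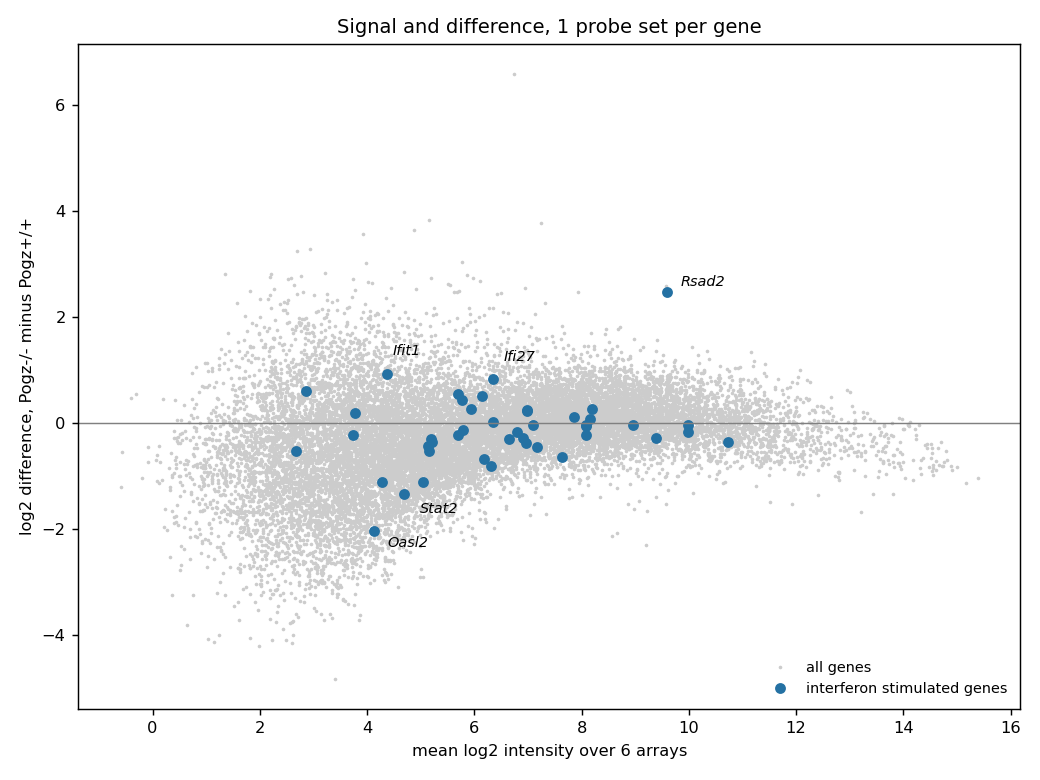
Mean log2 intensity over 6 arrays (x) against the log2 difference, Pogz-/- minus Pogz+/+ (y), for all 18193 genes (gray) and the 44 members (blue). Rsad2 stands at 2.48, rank 36 among all genes by difference, and the other members lie within the gray cloud at every signal.

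At the level of probe sets, 2 of the 77 rose over 6 arrays, both of Rsad2, and 0 fell, beside 0.0311% and 0.00666% of all probe sets. Without replicate 1, 5 rose and 0 fell, beside 1.45% and 1.22%. These were the 3 of Rsad2 and 1 each of Ifi27 and Trim25. On 1454757_s_at of Ifi27, a small membrane protein long used as a marker of interferon exposure in human blood, the arrays read 5.55, 6.97 and 5.14 in Pogz-/- FL and 2.58, 2.86 and 2.46 in Pogz+/+ FL. The groups did not overlap, and the difference was 3.25 (SE 0.72, adjusted p = 0.137 over probe sets; 3.23 and 0.0236 without replicate 1).

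The brighter probe set of Ifi27 read 7.13, 7.48 and 5.68 in Pogz-/- FL and 5.83, 5.90 and 6.09 in Pogz+/+ FL. Pogz-/- replicate 3 was below every Pogz+/+ array on it, and the difference was 0.83 (SE 0.43, adjusted p = 0.333). Trim25, a ligase that activates the RNA sensor RIG-I, read 8.75, 9.01 and 8.68 in Pogz-/- and 7.47, 8.09 and 7.88 in Pogz+/+ on 1425974_a_at. The difference was 1.00 (SE 0.21, adjusted p = 0.128; 0.83 and 0.0166 without replicate 1), but its other probe sets gave −0.04 (SE 0.15) and −0.51 (SE 0.33). Probe sets of Ifi35, a regulator of innate signalling, also disagreed: the brightest gave −0.36 (SE 0.18) and 1424617_at gave 1.83 (SE 0.99), where replicate 1 read 2.63 against 6.77 and 6.72 in its group, and 0.46 (SE 0.24) without it. Rtp4, a chaperone of membrane receptors, had 0.43 (SE 0.41; 0.05 without replicate 1) on the brighter and −0.85 (SE 0.93) on the dimmer probe set.

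Upstream of the class, 0 of 16 interferon ligands and receptors were called, and 10 of the 16 were under the median signal. Ifnb1, the gene of interferon beta, read 4.18, 3.70 and 4.54 in Pogz-/- FL and 5.96, 4.66 and 4.48 in Pogz+/+ FL, a difference of −0.89 (SE 0.64). The receptor chain Ifnar2 was lower in each Pogz-/- array, 9.17, 9.05 and 9.26 against 10.11, 9.38 and 9.63 in Pogz+/+, with a difference of −0.55 (SE 0.20, adjusted p = 0.209), and Ifngr2, of the interferon gamma receptor, had 0.68 (SE 0.33, adjusted p = 0.309). The median of these 16 was −0.27. Of 32 genes of sensing and signalling 0 were called, with a median of −0.16, and 1, Jak1, rose without replicate 1. Without that array 2.41% of all genes rose.

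Jak1, the kinase shared by all interferon receptors and several cytokine receptors, read 9.04, 9.49 and 9.30 in Pogz-/- FL and 7.17, 8.15 and 7.90 in Pogz+/+ FL. The groups did not overlap, and the difference of 1.54 (SE 0.25, adjusted p = 0.0629) was 1.25 without replicate 1 (SE 0.15, adjusted p = 0.00191). Its other probe sets gave 0.74 (SE 0.23) and 0.20 (SE 0.20). Socs3, an inhibitor of JAK signalling, had −0.73 (SE 0.24, adjusted p = 0.191).

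The median of 90 further genes known to answer interferon was 0.04 over 6 arrays. Of these, 1 rose and 0 fell, beside 0.0989% and 0.022% of all genes. The gene that rose was Isg20, an exonuclease that degrades single-stranded RNA. It read 9.90, 10.33 and 10.10 in Pogz-/- FL and 8.87, 9.14 and 9.02 in Pogz+/+ FL. The groups did not overlap, and the difference of 1.10 (SE 0.17, adjusted p = 0.04995) lay at the threshold and did not pass in 14 of the 17 alternatives that could be run for it. Without replicate 1, 5 of the 90 rose and 0 fell, where 2.41% of all genes rose and 2.07% fell. They were Isg20, Rnf213, a large ubiquitin ligase, and 3 genes of MHC class I, H2-D1, H2-K1 and B2m; Rnf213, H2-K1 and B2m are named after their values were seen.

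MHC class I molecules hold peptides at the surface of the cell. H2-D1, a heavy chain, read 9.24, 9.32 and 9.27 in Pogz-/- FL and 6.89, 7.88 and 7.99 in Pogz+/+ FL, a difference of 1.69 (SE 0.27, adjusted p = 0.054; 1.34 and 0.000403 without replicate 1). B2m, the light chain, read 10.89, 11.11 and 11.03 in Pogz-/- and 9.86, 10.11 and 10.32 in Pogz+/+, with 0.91 (SE 0.16, adjusted p = 0.0772; 0.79 and 0.00262 without replicate 1). In both, each Pogz-/- array was above each Pogz+/+ array. H2-K1, another heavy chain, had 1.17 (SE 0.24, adjusted p = 0.0922; 0.89 and 0.00424 without replicate 1). The probe sets given here for both heavy chains end in _x_at, a kind that can bind related transcripts. The 9 probe sets of H2-D1 ranged from −4.44 (a dim probe set of the ordinary kind) to 2.90, so H2-D1 is uncertain as a single gene. The 4 probe sets of H2-K1 had differences of 0.55 to 1.17. All are of the _x_at kind, so H2-K1 too is uncertain as a single gene. The other probe set of B2m had 1.90 (SE 0.46), or 1.25 (SE 0.14) without replicate 1.

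**Figure D4:**
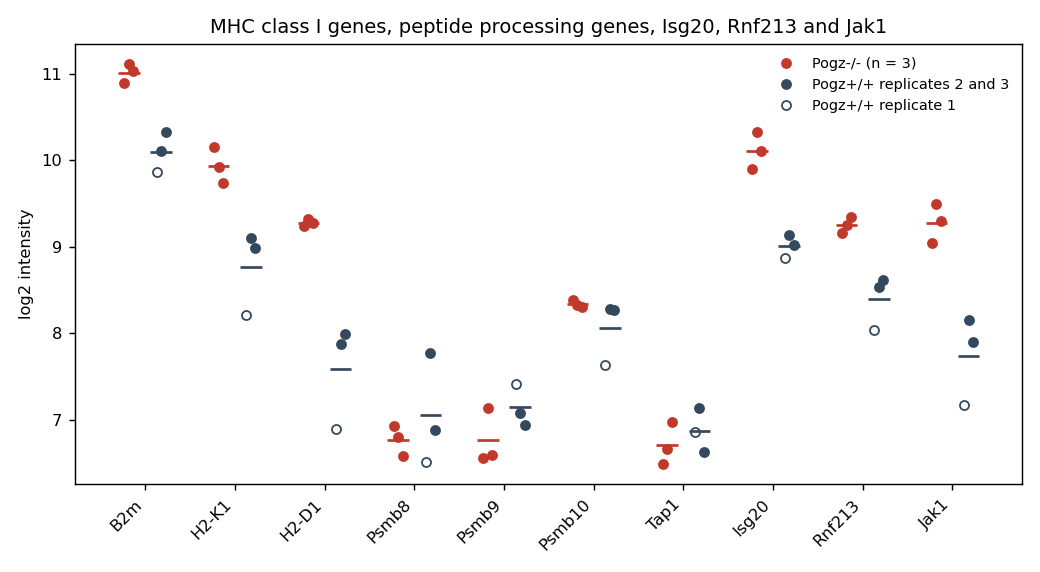
Log2 intensity of MHC class I genes, of the members that process peptides, and of Isg20, Rnf213 and Jak1, with Pogz-/- arrays (red) left of Pogz+/+ arrays (dark, replicate 1 open) and bars at the mean of 3. B2m lies at 10.89 to 11.11 in Pogz-/- FL and at 9.86 to 10.32 in Pogz+/+ FL, whereas Psmb8, Psmb9 and Tap1 overlap between the genotypes.

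Over 6 arrays the only cell type markers called were of granulocytes. Of 15 granulocyte markers 2 rose over 6 arrays, Camp and Chil3, and 5 rose without replicate 1. The median difference of the 15 was 0.13, beside −0.17 over all genes. Without replicate 1 these medians were 0.23 and −0.10. Over all genes, 0.0989% rose and 0.022% fell with 6 arrays, and 2.41% rose and 2.07% fell without replicate 1. Camp, a granule peptide, had a difference of 1.17 (SE 0.16, adjusted p = 0.029) and Chil3, a chitinase-like protein, had 2.74 (SE 0.34, adjusted p = 0.0212), while the summed intensity of the list was 50667 to 58140 in Pogz-/- FL and 49910 to 86634 in Pogz+/+ FL. Of 19 macrophage markers 0 were called, 1, Lyz2, rose without replicate 1, and the sums were 6856 to 8536 in Pogz-/- and 7573 to 8125 in Pogz+/+. Adgre1, the surface antigen by which mouse macrophages are commonly stained, read 7.68, 8.35 and 8.41 in Pogz-/- and 8.12, 8.16 and 8.18 in Pogz+/+, a difference of −0.01 (SE 0.22).

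Plasmacytoid dendritic cells, the main makers of type I interferon, had 10 measured markers, of which 0 were called, with sums of 575 to 830 in Pogz-/- FL and 768 to 976 in Pogz+/+ FL. Of 11 erythroid markers 0 were called over 6 arrays and 6 fell without replicate 1, with sums of 63156 to 67928 in Pogz-/- and 87241 to 115833 in Pogz+/+. Of 11 hepatocyte and hepatoblast markers 0 were called, and Afp fell without replicate 1. Their sums were 17232 to 27614 in Pogz-/- and 28097 to 51090 in Pogz+/+. Endothelium and stroma had 0 of 10 called, with sums of 1341 to 1390 in Pogz-/- and 1520 to 2461 in Pogz+/+. B, T and NK cells had 0 of 13, with 1, Nkg7, rising without replicate 1. Their sums were 503 to 611 in Pogz-/- and 584 to 1067 in Pogz+/+. The erythroid, hepatocyte and endothelial sums were thus lower in each Pogz-/- array than in each Pogz+/+ array. In every cell type list, the highest Pogz+/+ sum was that of replicate 1, so the upper ends of the Pogz+/+ ranges rest on that array. No marker was listed at 0. The part of any cell type in the rise of Rsad2 was not tested.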

How the data were processed

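RNA (about 100 ng) from FL of 3 Pogz-/- and 3 Pogz+/+ embryos was labelled by 3′ IVT and hybridized to Affymetrix Mouse Genome arrays. The authors used Affymetrix Expression Console to make the deposited intensity values (version and algorithm not given in the sources used here); these are linear, with a 2% trimmed mean of 150 on each array. Medians differed between arrays, so they were not quantile normalized. Replicates are separate biological samples per the labels. Precision is limited by the number of arrays.

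Log2 was taken with no pseudocount. Tests covered 45037 probe sets, without 64 controls; 34945 name 1 gene, 932 several, and 9160 are unnamed here. Each gene took its brightest probe set by mean over 6 arrays, with symbols updated through RefSeq. The fit was limma 3.58.1 in R 4.3.3 (lmFit, eBayes with trend and robust, genotype only, two-sided, Benjamini-Hochberg adjustment). The study's array methods name cutoffs of 1.5-fold and a false discovery rate of 0.05 and no test; the unpaired t-test of their general statistics was an alternative.

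The members, lists and this fit were chosen with earlier results of these data known. In particular, limma's plain fit was known to call no gene. Named genes are Rsad2, Cmpk2, called members, the 8 members with the highest and the 8 with the lowest moderated t, the 4 brightest, those on chromosome 3, called genes and the 2 largest t of each interferon list, and Pogz; other genes are named as examples of their role. Alternatives were other limma settings, scalings, pseudocounts, filters and choices of probe set, the replicate number as a block, the methods' t-test and leaving out each array. The script was tested on simulated data.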

Additional observations from a re-analysis of the deposited data

How the results depend on the processing

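The difference of Rsad2 kept its sign in all 18 alternatives, between 2.18 and 2.94, but its call was lost in 9. The adjusted p of these was 0.291 with limma's plain fit (difference 2.48), 0.153 with the plain fit without Pogz+/+ replicate 1 (2.92), 0.0713 with quantile normalization (2.41), 0.266 with the methods' t-test (2.48) and 0.069 with the mean of all probe sets (2.23). Leaving out 1 array gave differences of 2.18 to 2.92, with an adjusted p of 0.253, 0.177 and 0.237 without Pogz-/- replicates 1, 2 and 3, and 0.126 without Pogz+/+ replicate 3. The members called numbered 0 in those 9 alternatives, which include 0 with the plain fit, with and without replicate 1, quantile normalization, the t-test and the mean of probe sets, and 0 to 1 when 1 array was left out. No member other than Rsad2 was called in any of the 18. The genes called numbered 22 over 6 arrays (3222 had an unadjusted p under 0.05). They numbered 0 with the plain fit (also without replicate 1), 9 with quantile normalization, 4 with median centring, 1 with the t-test, 5 with the mean of probe sets, 11 with the fit over all probe sets, 679 without replicate 1 after quantile normalization, and 0 to 815 when 1 array was left out: 0 without Pogz-/- replicate 1 or 2 or Pogz+/+ replicate 3, 1 without Pogz-/- replicate 3 and 815 without Pogz+/+ replicate 1. With the replicate number as a block 65 genes were called and Rsad2 remained the only member. Deviations of same-numbered samples correlated at 0.004, −0.009 and −0.013. These values show no pairing by number, but with 3 arrays a genotype they cannot exclude it.

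Median centring moves the median of all genes to 0.29 and that of the members to 0.30. The members' median was −0.05 with quantile normalization, −0.04 with the filter on dim genes, −0.08 with the mean of probe sets, −0.05 without probe sets of the _s, _x and _a kinds, and −0.14 to −0.07 when 1 array was left out. Of the 44 members 14 kept their sign in all alternatives and 30 did not. Signs turned with median centring for Ifi35 (0.10), Dtx3l (0.01), Trim25 (0.42), Ifitm1 (0.30), Gbp2 (0.10), Gbp3 (0.34) and Adar (0.43); with quantile normalization for Cmpk2 (−0.01, also without replicate 1), Gbp2 (0.08; 0.16 without replicate 1) and Gbp3 (0.24); with the mean of probe sets for Cmpk2 (−0.12), Rtp4 (−0.21), Ifi35 (0.46), Trim25 (0.15), Gbp2 (0.50), Adar (0.03) and H2-D1 (−0.02); and without _s, _x and _a probe sets for Ifi35 (1.83), Gbp2 (1.36), Socs3 (0.32) and Pogz (−0.59). When 1 array was left out, Cmpk2 ranged from −0.09 to 0.25, Ifitm1 from −0.35 to 0.00, Gbp3 from −0.32 to 0.17 and Adar from −0.15 to 0.10; Ifitm1 was also at 0.00 in the plain fit without replicate 1. The causes were not tested.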
